A study of Macaca mulatta with 13 samples.

Results

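The FOXO transcription factors and the ubiquitin ligases of muscle atrophy were followed in the vastus lateralis, a thigh muscle, of old male rhesus monkeys (Macaca mulatta). The genes were chosen by name for their roles: the ligase genes TRIM63, FBXO32, TRIM54, FBXO30 and FBXO40, the FOXO genes FOXO1, FOXO3 and FOXO4, and the transcription factor genes KLF15 and CEBPD. Probe sets whose annotation gave exactly 1 of these 10 symbols were taken, 16 of 52766 in all. They covered 9 of the 14132 genes named on the array, and FOXO3, whose name the annotation gives to no probe set, is not analysed here. Of the 16 probe sets, 15 lay above a mean signal of 107, below which the dimmer 50% of probe sets were not tested, and the other was a dim probe set of KLF15.

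The study compared 5 monkeys on a control diet, aged 27 to 30 years, with 8 monkeys under calorie restriction (CR), aged 27 to 32 years. The only duration it gives, 18.5 years, is worded as if both groups had been restricted and is read here as that of the CR group alone. Each animal gave 1 one-colour Affymetrix array, and the values are MAS5 signals, a brightness per probe set on a linear scale. Ages are known per group only, and the number of arrays sets the precision. Signals of different probe sets were not compared with each other.

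In muscle, FOXO factors are held outside the nucleus while insulin and IGF1 signal through the kinase AKT. When that signal falls, as in fasting, they enter the nucleus and switch on genes of protein breakdown, among them ubiquitin ligases that mark muscle proteins for the proteasome. Glucocorticoids reach the same ligase genes through their receptor and through KLF15 and CEBPD.

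No member passed the test between diets. In limma's moderated test on log2 signals, 0 of the 15 tested probe sets had a Benjamini-Hochberg adjusted p under 0.05, as did 0% of the 26383 probe sets tested. Each of the 15 had an adjusted p of 0.999. At an unadjusted p under 0.05 there was 1 member, TRIM63, or 6.67% of the 15, beside 2.43% of all probe sets tested. That call was lost in 9 of 25 alternatives, with the RNA quality covariates, with the replicate block and without control replicate 3, 4 or 5 or CR replicate 3, 4, 7 or 8. Without control replicate 1 an FBXO32 probe set joined TRIM63 at that level, and without control replicate 5 KLF15 was the only call. In the exact permutation test at the same level there was also 1, TRIM63, beside 2.73% of all. No member's diet groups were without overlap, beside 0.072% of all. The log2 difference (CR minus control) was above 0 for 11 of the 15 probe sets and below 0 for 4, with a median of 0.20, beside a median of -0.012 and 48.1% above 0 over all probe sets tested. Without control replicate 4, 8 of the 15 were above 0 and the median was 0.0070. Some genes have several probe sets among the 15. With all animals and 1 probe set per gene, the brightest, 7 of 9 genes were above 0 and 2 below. Their median was 0.13, beside a median of -0.0016 and 49.8% above 0 over all genes tested.

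Of 13 markers of skeletal muscle fibres 9 were on the array, all above the brightness limit. Of 4 cardiac muscle markers 3 lay above it too, so the limit alone does not tell these muscle types apart. Their summed signal ran from 21432 to 104816 in controls and from 4453 to 131384 in CR. The arrays correlated with each other at r from 0.834 to 0.940 across probe sets, which are not independent replicates, and control replicate 4 had the lowest mean correlation with the others, 0.879. That animal also had the lowest summed signal of the fibre markers, 365198, where the other controls lay between 438472 and 803569 and the CR animals between 492923 and 816280. Its summed endothelial signal, over 8 of 9 markers, was the highest, 19778, against up to 13650 in the other controls and from 4805 to 11856 in CR. Its summed fibroblast signal, over 6 of 7 markers, was also the highest, 128553, against 30843 to 71990 in the other controls and 35537 to 84728 in CR. CR replicate 2 had the highest summed adipocyte signal, 52890 over 5 of 9 markers, and the highest macrophage signal, 11020 over 8 of 9. The other CR animals lay between 7593 and 28610 for adipocytes and between 3058 and 6790 for macrophages, and controls between 11314 and 43393 and between 4080 and 7584. No marker in these lists passed the adjusted test between diets. By log2 difference, all 8 endothelial and all 3 cardiac markers tested lay below 0, while fibre markers had 5 above and 4 below. Adipocyte markers had 2 above and 3 below, macrophage markers 3 and 5, and fibroblast markers 2 and 4. The median summed endothelial signal was 7442 in each diet. These directions were not tested as sets. In whole muscle, fewer cells of a type and less RNA per cell cannot be told apart.

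TRIM63 encodes MuRF1, a RING finger ligase of the sarcomere that ubiquitinates thick filament proteins and is a classical marker of atrophy. Its signal was 14076, 15590, 11873, 10167 and 10612 in control replicates 1 to 5. In CR it ran from 9073 through a median of 18436 to 21846. CR replicates 3 to 8 all lay above the highest control, CR replicate 1 (14278) lay inside the control range, and CR replicate 2, the lowest of all 13 animals, lay below it. Having 6 or more CR animals above all controls was seen for 0.872% of the probe sets tested. That number and direction were taken from TRIM63 itself, so the share is a description. The mean log2 signal was 13.59 ± 0.26 among the 5 controls and 14.05 ± 0.41 among the 8 CR animals (SD), a difference of 0.47 ± 0.20 (SE), or 1.38-fold with a 95% interval of 1.03 to 1.86. limma gave an unadjusted p of 0.0328 and an adjusted p of 0.999, and an exact permutation test, two-sided and over all 1287 splits, gave 0.0490 before adjustment. A log2 difference at least as large in either direction was found for 11.1% of the probe sets tested. The TRIM63 difference stayed between 0.40 (without control replicate 4) and 0.60 (without CR replicate 2) when single animals were left out.

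**Figure D1:**
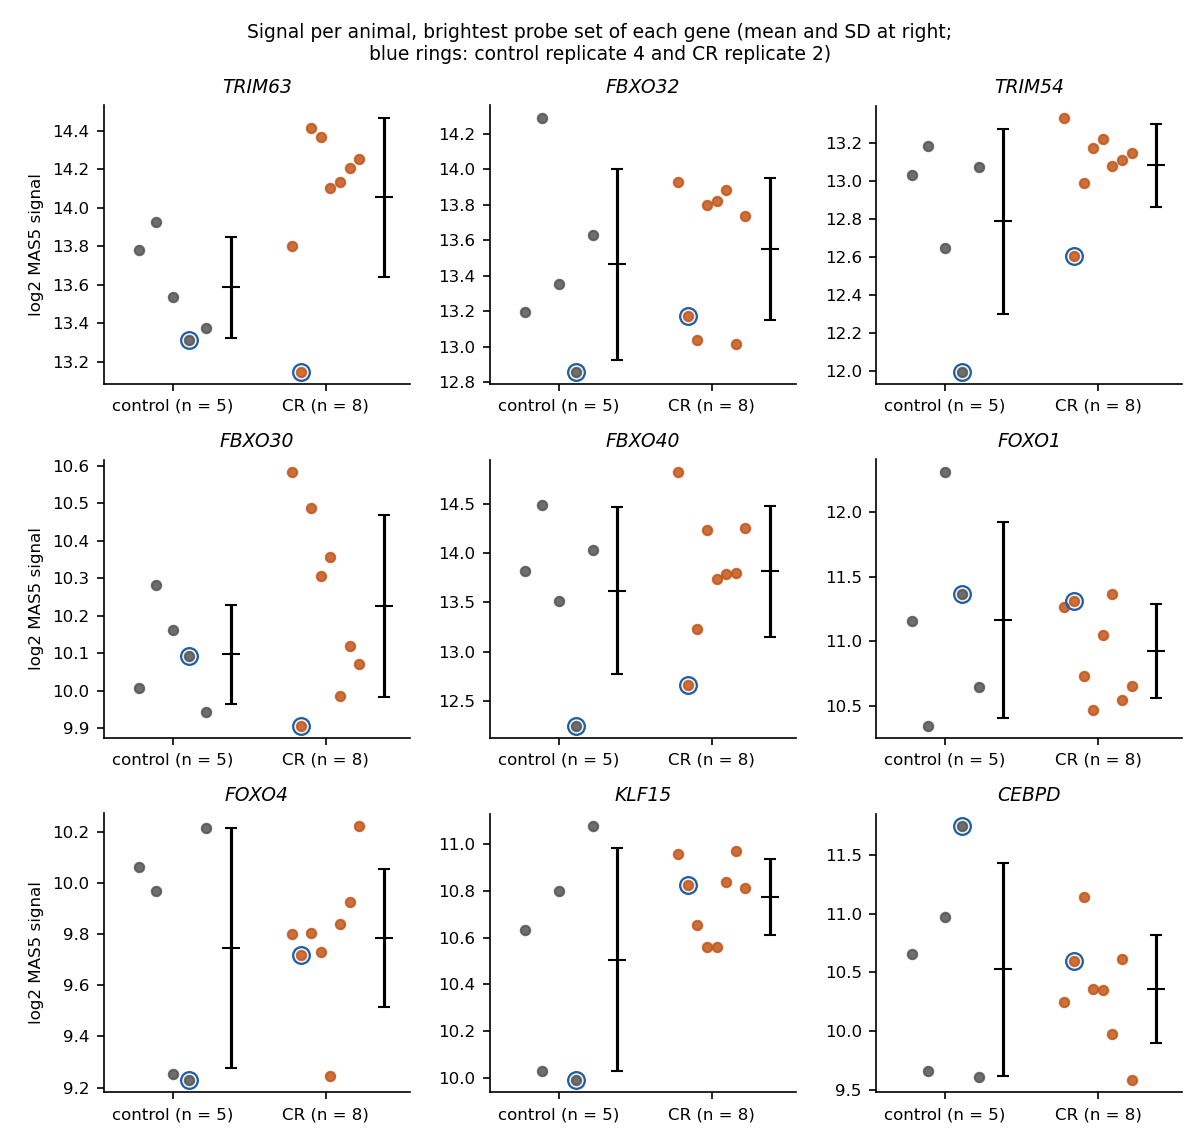
Log2 MAS5 signal of the brightest probe set of each of the 9 genes, 1 point per animal, for 5 control and 8 CR monkeys; the bar beside each group gives its mean and SD, and blue rings mark control replicate 4 and CR replicate 2. In the TRIM63 panel 6 of 8 CR animals lie above all controls, while in the other panels most CR animals lie inside the control range, except for FBXO30, where 4 lie above it and 1 below.

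FBXO32 encodes atrogin-1, the F-box subunit that brings targets to an SCF ubiquitin ligase, and it is the other classical atrophy marker. It had 5 probe sets, all tested, and 4 of them gave a log2 difference above 0. The brightest, MmugDNA.16757.1.S1_at, gave signals of 9377, 19992, 10455, 7426 and 12647 in control replicates 1 to 5, and in CR from 8270 through a median of 13941 to 15571. The highest and the lowest animal were both controls, so that all 8 CR animals lay inside the control range. Its log2 difference was 0.085 ± 0.24 (SE), with a 95% interval of -0.42 to 0.59. Leaving out control replicate 4 gave -0.067 and leaving out control replicate 2 gave 0.29.

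The next brightest FBXO32 probe set, MmuSTS.4368.1.S1_at, gave 15026, 11729, 6608, 6140 and 11248 in the controls and ran from 9163 through a median of 11784 to 17918 in CR. Here control replicates 3 and 4 lay below every CR animal, and CR replicates 4 and 8 lay above every control. Its log2 difference was 0.37 ± 0.23 (SE), with a 95% interval of -0.12 to 0.86, and 0.21 without control replicate 4. The remaining ones differed by 0.29 ± 0.40 (MmugDNA.16754.1.S1_s_at), 0.27 ± 0.41 (MmugDNA.16754.1.S1_at) and -0.15 ± 0.23 (MmugDNA.38820.1.S1_at). In all 5 control replicate 4 was the lowest control, and without it these last values were 0.0070, 0.055 and -0.31.

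The FBXO32 probe sets followed each other to different degrees across the 13 animals. In the permutation test of 13 same-gene pairs, 6 passed after adjustment, and 5 of them were FBXO32 pairs. The closest FBXO32 pair was MmugDNA.16754.1.S1_at with its _s_at version, whose names share a stem (r = 0.89, adjusted p = 0.00078; rho = 0.88, adjusted p = 0.0026; r = 0.83 without the 2 animals farthest from the median). The 2 brightest had r = 0.55 (adjusted p = 0.090) and rho = 0.55 (adjusted p = 0.089). MmugDNA.38820.1.S1_at was the loosest, with r from 0.27 to 0.54 against the other 4, none past the adjusted threshold.

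TRIM54 encodes MuRF3, a relative of MuRF1 that binds microtubules and the sarcomere. Its brighter probe set, MmugDNA.36887.1.S1_at, gave 8373, 9302, 6417, 4084 and 8614 in control replicates 1 to 5. In CR it ran from 6224 through a median of 8944 to 10286. Control replicates 4 and 3 and CR replicate 2 were the low animals, and the other 10 lay between 8132 and 10286. The log2 difference was 0.29 ± 0.19 (SE), with a 95% interval of -0.11 to 0.70, and 0.097 without control replicate 4. The other TRIM54 probe set, MmuSTS.3792.1.S1_at, differed by -0.17 ± 0.18 and did not follow the brighter one from animal to animal (r = 0.095, permutation p = 0.762; rho = -0.32, permutation p = 0.280).

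FBXO30 encodes MUSA1, an F-box ligase subunit known from denervated muscle and held down there by BMP signalling. Its signals in control replicates 1 to 5 were 1029, 1244, 1146, 1091 and 985, and in CR they ran from 959 through a median of 1186 to 1534. CR replicates 1, 3, 4 and 5 lay above all controls and CR replicate 2 below them. It had the narrowest range of all members, 1.60-fold from the lowest to the highest animal, and a log2 difference of 0.13 ± 0.15 (SE) with a 95% interval of -0.19 to 0.45.

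FBXO40 encodes a muscle F-box protein that sends the insulin receptor substrate IRS1 to degradation. Its brighter probe set, MmugDNA.26816.1.S1_at, gave 14408, 22938, 11712, 4865 and 16680 in control replicates 1 to 5. In CR the signal ran from 6464 in replicate 2 through a median of 14197 to 28903 in replicate 1. These animals spanned a 5.94-fold range, with control replicate 4 and CR replicate 2 lowest. The log2 difference was 0.20 ± 0.36 (SE), and -0.15 without control replicate 4. The other FBXO40 probe set differed by 0.28 ± 0.42, or -0.019 without control replicate 4, and followed the brighter one closely (r = 0.92, adjusted permutation p = 0.00039; rho = 0.78, adjusted permutation p = 0.011; r = 0.82 without control replicate 4 and CR replicate 2).

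FOXO1 encodes a FOXO factor that drives both ligase genes and also PDK4 in fasted muscle. Its signals in control replicates 1 to 5 were 2281, 1302, 5072, 2639 and 1599, and in CR they ran from 1419 through a median of 1893 to 2641. Control replicate 3 was far above every other animal, and all 8 CR animals lay inside the control range. The log2 difference was -0.24 ± 0.28 (SE), with a 95% interval of -0.82 to 0.34. It was 0.046 without control replicate 3, and -0.44 with control replicate 2 left out instead.

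FOXO4 encodes a further FOXO factor of muscle. It gave 1068, 1001, 611, 601 and 1188 in control replicates 1 to 5, and from 607 through a median of 892 to 1194 in CR. Controls fell into a low pair (replicates 3 and 4) and a high trio, and 7 of 8 CR animals lay inside the control range. The log2 difference was 0.039 ± 0.20 (SE), with a 95% interval of -0.39 to 0.47, and it took either sign among the alternatives.

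KLF15 encodes a glucocorticoid-induced factor that switches on genes of amino acid breakdown. Its brighter probe set, MmuSTS.1429.1.S1_at, gave 1586, 1046, 1785, 1018 and 2161 in control replicates 1 to 5. In CR the values ran from 1510 through a median of 1807 to 2008. All 8 CR animals lay above the control mean and inside the control range, and control replicates 2 and 4 were the low animals. The SD on the log2 scale was 0.48 (n = 5) in controls and 0.16 (n = 8) in CR. The log2 difference was 0.27 ± 0.18 (SE), with a 95% interval of -0.12 to 0.66, and ran from 0.14 without control replicate 4 to 0.41 without control replicate 5. The dim probe set of KLF15, MmugDNA.11136.1.S1_at, was not tested. Its signal ran from 23 to 286 in controls and from 25 to 255 in CR, and its log2 difference was 0.062. That difference ran from -0.25 without CR replicate 8 to 0.67 without control replicate 5.

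CEBPD encodes a C/EBP factor induced by glucocorticoids and by inflammation. Its signals were 1610, 808, 2003, 3427 and 780 in control replicates 1 to 5, and in CR they ran from 769 through a median of 1312 to 2260. Control replicate 4, the lowest control for 12 of the 15 tested probe sets, was here the highest of all 13 animals. The log2 difference was -0.17 ± 0.33 (SE), with a 95% interval of -0.86 to 0.53, and 0.14 without control replicate 4.

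Control replicate 4 was the lowest of all 13 animals for 7 of the 15 probe sets, beside 14.7% of all probe sets tested. It was the highest for 1 of the 15, beside 16.9% of all. Probe sets of the same gene are counted separately here. The SD among controls was larger than that among CR animals for 11 of 15 probe sets, beside 55.8% of all. With control replicate 4 left out of the controls this held for 9 of 15, beside 45.8% of all. On its array the log2 3-prime over 5-prime ratio of actin, a measure of RNA quality, was 2.41. This was the highest of all 13, against 1.06 to 2.08 on the others, while its GAPDH ratio, 0.33, lay inside their range. The part of that animal's marker signals and RNA quality in these values was not tested.

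**Figure D2:**
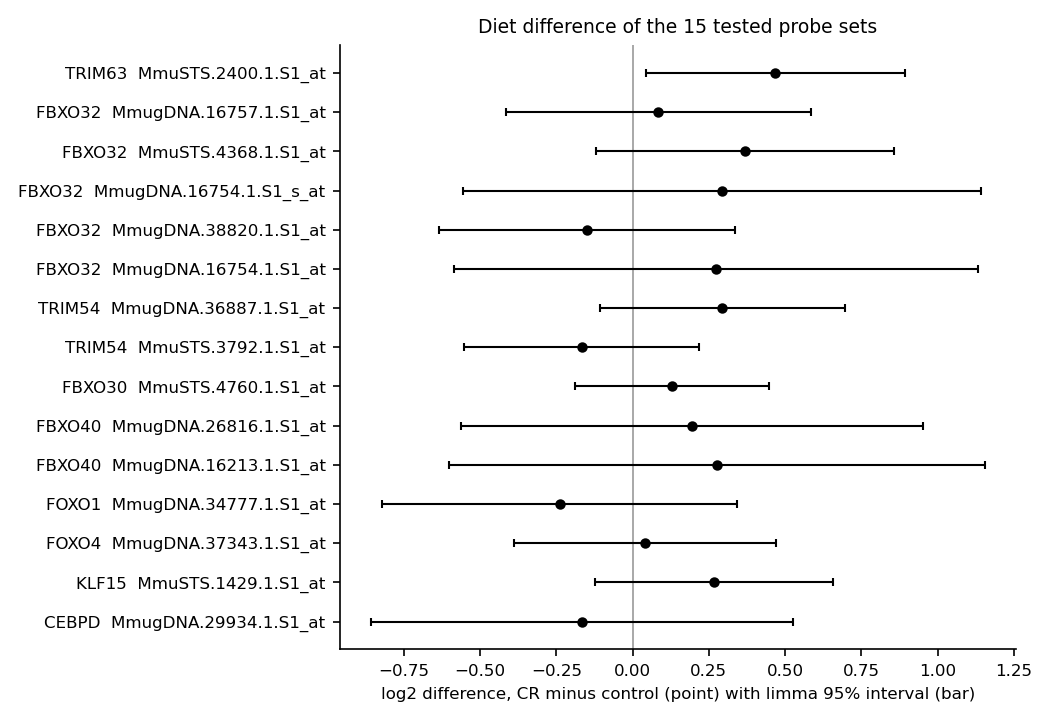
Log2 difference (CR minus control) of each of the 15 tested probe sets, with the point at the estimate and the bar giving limma's 95% interval before adjustment. The TRIM63 interval, 0.043 to 0.89, is the only one that leaves out 0, and the probe sets of FBXO32 and of TRIM54 have estimates on both sides of 0.

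The intervals show what these arrays could resolve. The median half-width of the 95% interval was 0.49 on the log2 scale for the members and 0.55 for all probe sets tested, before adjustment. Among the members it was narrowest for FBXO30, and widest for the dimmer FBXO40 probe set, from -0.60 to 1.16.

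Some ligases varied together between animals. Among the brightest probe sets of the 9 genes, 6 of 36 pairs passed a two-sided permutation test of Pearson's r over the 13 animals after Benjamini-Hochberg adjustment. Counted by size, 7 of 36 pairs (19.4%) had an absolute r of at least 0.67, that of the weakest pair past the threshold. The same held for 4.86% of the pairs of all tested genes and for 8.43% of the pairs of genes at least as bright as the dimmest member. That limit was set by the member pairs themselves, so the shares are a description.

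FBXO32, TRIM54 and FBXO40 formed the positive group. TRIM54 and FBXO40 had r = 0.88 (permutation p = 3e-05, adjusted p = 0.0011) and rho = 0.79 (adjusted p = 0.043). FBXO32 and FBXO40 had r = 0.78 (p = 0.0012, adjusted p = 0.014) and rho = 0.70 (adjusted p = 0.068). FBXO32 and TRIM54 had r = 0.67 (p = 0.0069, adjusted p = 0.042) and rho = 0.79 (adjusted p = 0.043). Animals with a high signal at one of these brightest probe sets thus tended to have a high signal at the others. This describes those probe sets only. The other TRIM54 probe set had r = 0.095 with the brighter one, and the 2 brightest of FBXO32 had r = 0.55.

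CEBPD ran against FBXO32, TRIM54 and FBXO40 at the same probe sets. Its r was -0.80 with FBXO32 (permutation p = 0.00098, adjusted p = 0.014), -0.76 with FBXO40 (p = 0.0032, adjusted p = 0.028) and -0.73 with TRIM54 (p = 0.0041, adjusted p = 0.029). By rank the CEBPD pairs gave rho of -0.74, -0.72 and -0.64, none past the adjusted threshold (adjusted p = 0.067, 0.067 and 0.13).

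The count moved most with control replicate 4. Without CR replicate 2 alone, 5 pairs passed, TRIM54 with FBXO40 at r = 0.88 and FBXO40 with CEBPD at r = -0.81 among them. Without control replicate 4, 1 pair passed, TRIM54 with FBXO40 (r = 0.82, adjusted permutation p = 0.036). Without control replicate 4 and CR replicate 2 together, 0 pairs passed, with 4 at an unadjusted permutation p under 0.05. The values were then 0.69 for TRIM54 with FBXO40, 0.72 for FBXO32 with FBXO40 and -0.74 for FBXO32 with CEBPD. With the 2 animals farthest from the median of the first gene left out of each pair, 0 pairs passed, and r was 0.58 for FBXO32 with TRIM54, 0.67 for FBXO32 with FBXO40, -0.68 for FBXO32 with CEBPD, -0.65 for FBXO40 with CEBPD and -0.51 for TRIM54 with CEBPD. With each diet set to its own mean, 4 pairs passed. Among the 8 CR animals alone TRIM54 and FBXO40 still had r = 0.90 (exact permutation p = 0.0012). Control replicate 4 was the animal with the highest endothelial and fibroblast marker signals and CR replicate 2 the animal with the highest adipocyte and macrophage signals, and the part of these in the correlations was not tested.

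**Figure D3:**
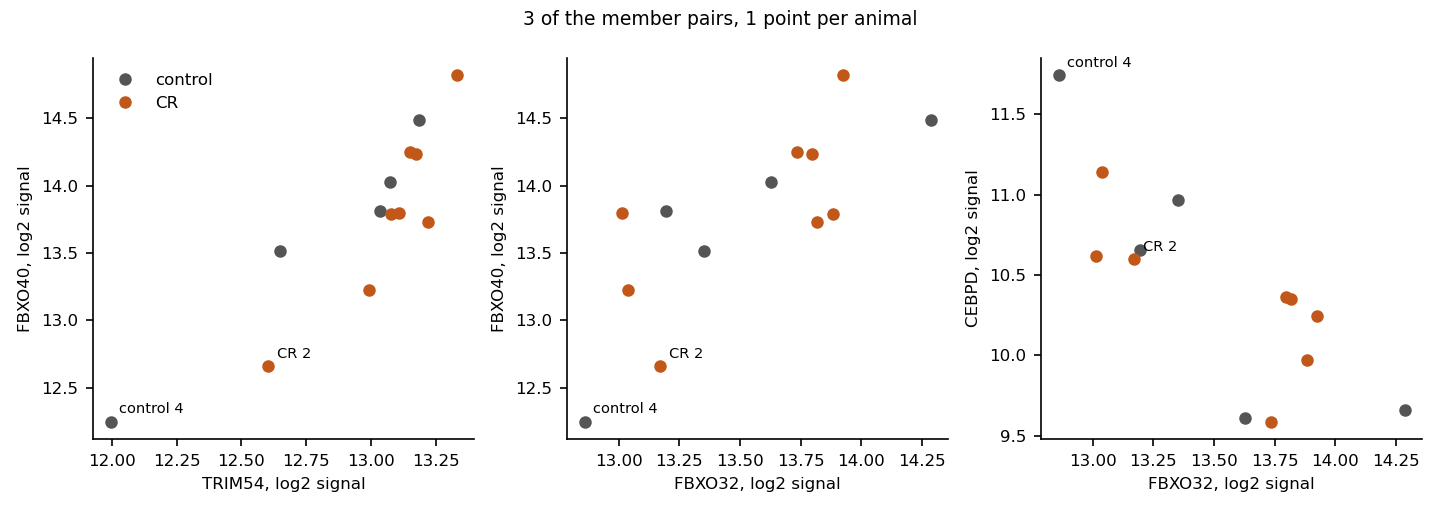
Log2 MAS5 signals of 3 member pairs, 1 point per animal (5 control, 8 CR), with control replicate 4 and CR replicate 2 labelled. TRIM54 and FBXO40 (r = 0.88) and FBXO32 and FBXO40 (r = 0.78) run together, FBXO32 and CEBPD (r = -0.80) run oppositely, and control replicate 4 sits at an end of each plot.

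TRIM63 was in none of the 6 pairs that passed over all 13 animals. Its highest r with another member was 0.64, with TRIM54 (permutation p = 0.012, adjusted p = 0.053; rho = 0.48), and it was 0.33 without control replicate 4 and CR replicate 2. With 1 animal left out it lay between 0.59 and 0.72, and passed without control replicate 5 (r = 0.72, adjusted permutation p = 0.044), CR replicate 1 (r = 0.69, adjusted permutation p = 0.045) or CR replicate 3 (r = 0.68, adjusted permutation p = 0.038). With FBXO32, the other classical marker of atrophy, r was 0.28. Over all 13 animals neither FOXO gene passed with any ligase gene. Without CR replicate 5, FOXO4 with TRIM54 did (r = 0.74, adjusted permutation p = 0.046). FOXO4 with CEBPD had r = -0.68 over all animals (adjusted permutation p = 0.053), and passed without control replicate 1 (r = -0.74), CR replicate 3 (r = -0.73) or CR replicate 5 (r = -0.78). FOXO1 had r = -0.50 with TRIM63 (permutation p = 0.079, adjusted p = 0.23; rho = -0.49) and -0.27 with FBXO32, and FOXO4 had 0.23 and 0.24. FOXO1 and FOXO4 had r = -0.61 with each other (p = 0.026, adjusted p = 0.10; rho = -0.51). No test compared these correlations with those of the positive group.

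**Figure D4:**
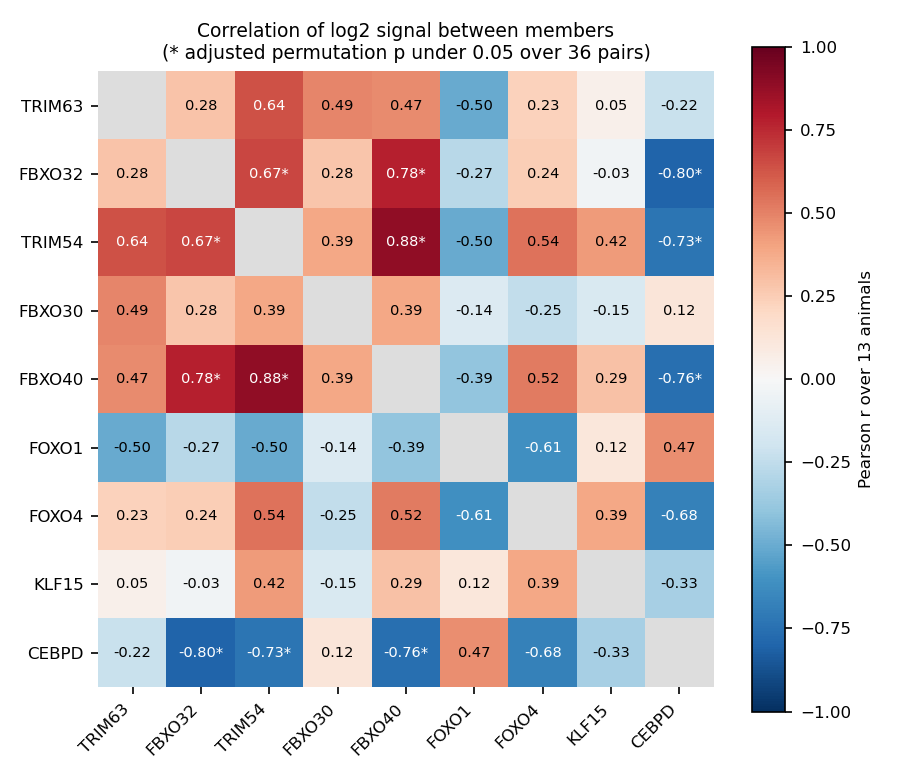
Pearson's r of log2 signal over the 13 animals for each of the 36 pairs of members at their brightest probe sets, with red for positive and blue for negative values and a star where the adjusted permutation p is under 0.05. The 6 starred pairs all lie among FBXO32, TRIM54, FBXO40 and CEBPD.

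Genes outside the members were ranked by their r with 4 of them, over 15755 probe sets and 13 animals. Since they were picked as the highest of that many, their r is given as a description. TRIM63 was most like RAB4A, an endosomal small GTPase (r = 0.91, rho = 0.91), LOC707459 (r = 0.91, rho = 0.92) and ZDHHC24, of the palmitoyltransferase family (r = 0.91, rho = 0.84). FBXO32 was most like the RNA-binding protein gene SYNCRIP (r = 0.92, rho = 0.87), the retromer gene VPS26B (r = 0.87, rho = 0.89) and LOC695267 (r = 0.86, rho = 0.82). FOXO1 was most like the Wnt receptor gene FZD6 (r = 0.96, rho = 0.94), ZFC3H1 (r = 0.90, rho = 0.98) and SLC25A27 (r = 0.87, rho = 0.86). KLF15 was most like MATR3, of the nuclear matrix (r = 0.87, rho = 0.78), the translation factor gene EIF5B (r = 0.87, rho = 0.81) and the triad gene TRDN (r = 0.85, rho = 0.66). Without the 2 animals farthest from the median of the member, r ranged from 0.84 to 0.87 for the TRIM63 genes and from 0.54 to 0.69 for the KLF15 genes.

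The genes around these members were read from 10 lists by role, each gene at its brightest probe set. Of 155 genes tested, 0 passed limma's adjusted test in either direction, and 3 (1.94%) had an unadjusted p under 0.05, beside 2.43% of all probe sets tested. Log2 differences were above 0 for 92 and below 0 for 63, with a median of 0.040. Over all genes tested at 1 probe set each, 49.8% were above 0 and the median was -0.0016.

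Upstream, the glucocorticoid receptor and its targets had 4 of 10 genes above 0 and a median of -0.013. The chaperone gene FKBP5, a target of the receptor, differed by 0.27 ± 0.30 (SE, log2) and by 0.00018 without control replicate 4, and the metallothionein gene MT2A by -0.27 ± 0.26, or -0.056 without control replicate 3. On the route from insulin and IGF1 to AKT and mTOR, 11 of 17 tested genes lay above 0 with a median of 0.028. IRS2, an insulin receptor substrate and itself a FOXO target, differed by 0.63 ± 0.26 (unadjusted p = 0.0246, adjusted p = 0.999, limma), and its other probe set by 0.25. PIK3R1, the regulatory subunit of PI3-kinase, differed by -0.54 ± 0.32, and by -0.23 without control replicate 4, and its further probe sets lay from -0.96 to -0.70.

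The myostatin and activin route to SMAD had 5 of 11 tested genes above 0 and a median of -0.018, and the activin receptor genes ACVR2A and ACVR2B differed by 0.31 ± 0.24 and -0.42 ± 0.24. With 1 animal left out ACVR2A lay between 0.040 (without control replicate 1) and 0.48, and ACVR2B between -0.63 (without control replicate 4) and -0.28. The list of FOXO regulators, which also holds a FOXO gene, FOXO6 (0.20), had 4 of 11 above 0 and a median of -0.087. There the coactivator gene PPARGC1A differed by 0.31 ± 0.32, or 0.091 without control replicate 4, and the acetyltransferase gene CREBBP by -0.26 ± 0.16. The medians of these 4 upstream lists changed sign under some settings, and without control replicate 4 they were -0.10, -0.012, 0.029 and 0.024 in the order given. Scaling alone turned the insulin list to -0.0031 (median centring) and the myostatin list to 0.028 (quantile normalization).

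Downstream, FOXO targets of autophagy and the lysosome had 4 of 10 tested genes above 0 and a median of -0.059. SQSTM1, the autophagy receptor p62, differed by 0.30 ± 0.19 with its other probe set at 0.31, and the kinase gene ULK2 by -0.30 ± 0.24. SQSTM1 stood at 0.10 without control replicate 3, and ULK2 at -0.16 without control replicate 2. The median of this list was 0.022 without control replicate 1. Other FOXO targets had 7 of 19 above 0 and a median of -0.041, or 0.042 without control replicate 4. ATF4, a factor of the stress response, differed by 0.34 ± 0.18, or 0.21 without control replicate 4, and RBL2, a pocket protein that restrains the cell cycle, by -0.55 ± 0.27. KLF15 targets of amino acid use had 5 of 6 above 0 and a median of 0.17, or 0.055 without control replicate 4. The branched-chain aminotransferase gene BCAT2 differed by 0.20 ± 0.17, or 0.032 without control replicate 4, and AASS, of lysine breakdown, by -0.013 ± 0.42.

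Other ubiquitin enzymes of muscle had 26 of 35 tested genes above 0 and a median of 0.10. Without control replicate 4 the count was 21 of 35 and the median 0.067. The deubiquitinase gene USP19 differed by 0.41 ± 0.23, the cullin gene CUL3 by 0.32 ± 0.18 (other probe set 0.054) and the membrane repair gene TRIM72 by 0.37 ± 0.22 (other probe set 0.012). Without control replicate 4 these were 0.26, 0.21 and 0.20. TRIM55, which encodes MuRF2, the third of the MuRF proteins, differed by -0.27 ± 0.16 and by -0.29 at its other probe set, while its relative TRIM63 had 0.47. That contrast within the family was not tested. UBR1, an N-end rule ligase gene, differed by -0.26 ± 0.23 with its other probe set at 0.13, and the conjugating enzyme gene UBE2D2 by -0.17 ± 0.16. With 1 animal left out UBR1 lay between -0.39 (without control replicate 4) and -0.063 (without control replicate 3), and UBE2D2 stood at -0.086 without control replicate 2.

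Muscle substrates of TRIM63 and FBXO32 had 5 of 14 tested genes above 0 and a median of -0.095, or 0.061 without CR replicate 8. The giant sarcomere protein gene TTN differed by -0.70 ± 0.32 (unadjusted p = 0.0453, adjusted p = 0.999, limma), with its other probe set at -0.54, and by -0.46 without control replicate 1. MYOD1, the myogenic factor that FBXO32 degrades, differed by 0.36 ± 0.19. Proteasome genes had 21 of 22 above 0 and a median of 0.19. Without control replicate 4 the count was 17 of 22 and the median 0.091. PSMC4, an ATPase subunit, differed by 0.41 ± 0.17 (unadjusted p = 0.0276, adjusted p = 0.999, limma), but its other probe sets by -0.023 and 0.12, and PSMA1 by -0.022 ± 0.16 with its other probe set at -0.36.

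**Figure D5:**
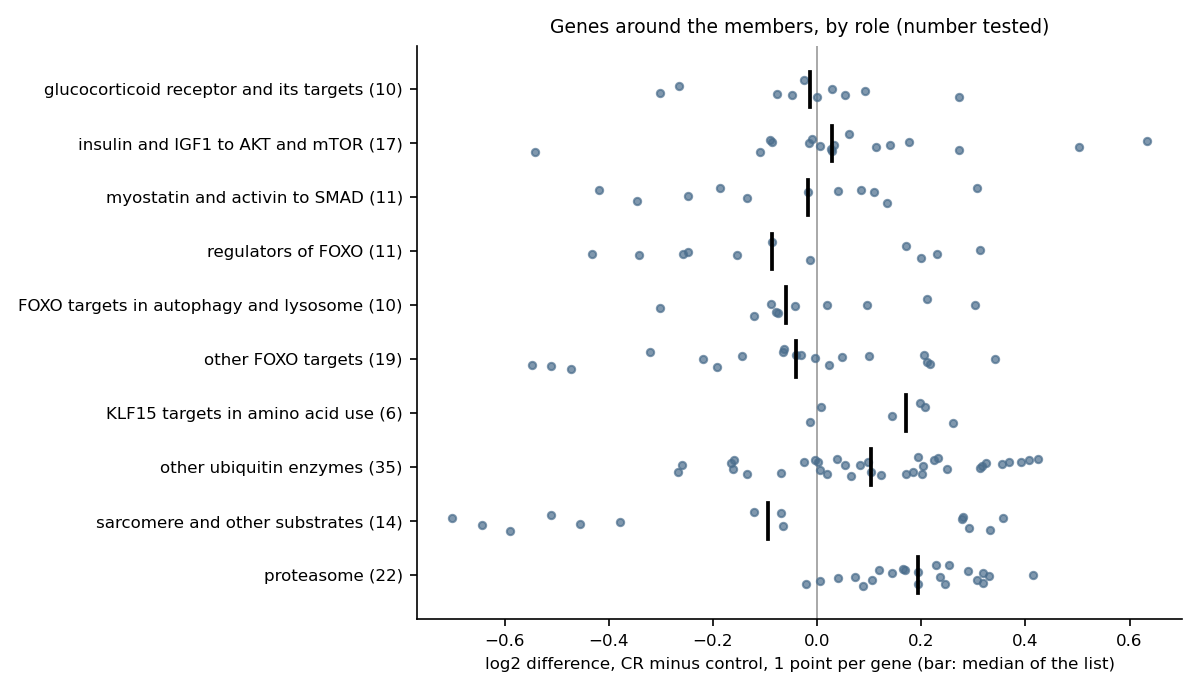
Log2 difference (CR minus control) of each tested gene in the 10 lists around the members, 1 point per gene at its brightest probe set, with a bar at each list's median and the number tested in brackets. Medians lie between -0.095 for the substrates and 0.19 for the proteasome, and no gene passed the adjusted test.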

How the data were processed

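Per the labels' protocols, Trizol was used to extract total RNA, from which biotin-labelled cRNA was made for Affymetrix arrays of 1 colour. The authors deposited intensity values, 1 linear signal per probe set and array, which the submitters' processing notes credit to MAS5, with no version. The 2% trimmed mean was 500.04 or 500.05 on each array, so each array carries its own scaling factor, and a shift of most transcripts in 1 animal would not show.

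Of 52865 probe sets 99 controls were removed. Signals were floored at 1 (137 values, 0 of them in members), log2 transformed, and the dimmer 50% by mean left out of tests, which left 26383. Diets were compared in limma 3.58.1 (R 4.3.3) by lmFit and then eBayes with a trend, adjusted over all tested probe sets, and single values with an exact permutation test. Correlations used 100000 resamples in numpy 2.4.6, and figures matplotlib 3.10.9. The members and lists were chosen with earlier results of these data known. All members are described. Of each list, the gene of lowest p above 0 and that below 0 are named (3 each for the ubiquitin enzymes), and 4 members name the 3 genes with the highest r. The limma fit was tested on simulated data with the means and spreads of these arrays. At an adjusted p under 0.05 it recovered 4 of 67 changes of 1.5-fold, 21 of 67 of 2-fold and 53 of 66 of 4-fold. It made 4 false calls. Alternatives covered normalization, centring, an offset of 16, the filter, the variance model, array weights, 3-prime over 5-prime ratios of GAPDH and actin, exact tests, 1 probe set per gene, a block for the replicate number, and leaving out each animal.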

Additional observations from a re-analysis of the deposited data

Results flagged for a closer look

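Within each diet, animals that stood far from their group were looked for among the members and the named pathway genes. This gave 5 in 80 groups, beside 4 at a nominal rate of 1 in 20. The named genes were picked by p in these data and the groups are not independent, so that rate is a rough guide only. Among members the flagged animal was CR replicate 2 for TRIM54 (MmugDNA.36887.1.S1_at). Its log2 signal of 12.60 lay below the 12.99 to 13.33 of the other CR animals. Control replicate 4 had the lowest FKBP5 signal of the controls, 6.80, against 7.94 to 8.40. Control replicate 1 had the lowest TRIM55 signal of the controls, 10.43, against 10.76 to 10.86. CR replicate 6 had the lowest UBE2D2 signal of its group, 10.62, against 11.06 to 11.38. CR replicate 2 had the highest TTN signal of its group, 12.51, against 10.54 to 11.21.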

How the results depend on the processing

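No member passed limma's adjusted test under any of the alternatives, with adjusted p from 0.903 up. Of 382 member values, 369 were counted as keeping their direction and 13 as turning. The exact tests, the filter, the variance model and 1 probe set per gene leave the difference as it was. Values under those alternatives could not turn. The count of 13 leaves out the dim KLF15 probe set, whose 0.062 turned to -0.25 without CR replicate 8. Over all probe sets the number past the threshold ranged from 0 to 1 with an animal left out (1 without control replicate 1 and 1 without control replicate 5), and was 0 otherwise. No list gene passed in any setting. The FOXO4 difference turned to -0.077 with array quality weights, -0.040 with the RNA quality covariates and -0.087 with the replicate block, and CEBPD to 0.0015 with weights and 0.014 with the block. AASS turned to 0.042 after quantile normalization, 0.011 with weights and 0.15 with the RNA quality covariates, and PSMA1 to 0.019 with those covariates and 0.089 with the block. With an animal left out, the range was -0.067 to 0.29 for FBXO32 (MmugDNA.16757.1.S1_at), -0.15 to 0.41 and -0.019 to 0.52 for FBXO40, -0.44 to 0.046 for FOXO1, -0.089 to 0.16 for FOXO4, -0.40 to 0.14 for CEBPD, -0.17 to 0.25 for AASS and -0.080 to 0.074 for PSMA1. The cause was not tested. The count of 6 member pairs was 2 by Spearman's rho, 0 without the 2 farthest animals, 1 in CR alone (fewer animals) and 0 without control replicate 4 and CR replicate 2. With an animal left out it ranged from 1 (that being control replicate 4) to 8 (that being CR replicate 3), and these last alternatives were chosen after seeing the data.

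The labels do not say that the replicate numbers pair animals. Same-numbered animals' deviations correlated at -0.20 to 0.020, and 0 of 5 controls correlated best with their own number. These values cannot show how the animals were housed or handled. With the replicate block 0 members passed, and the TRIM63 difference was 0.38. CR replicates 6, 7 and 8 share no number with a control.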
